A study of Mus musculus with 10 samples.

Results

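A set of 9 genes of the intestinal antibody system, out of 16875 gene names measured, was followed in 10 mouse colon tumors. They were chosen by name: Pigr, the receptor that carries IgA through the epithelium, and the B and plasma cell genes Jchain, Igha, Ighm, Mzb1, Cd79a, Cd79b, Ms4a1 and Pou2af1. These members, and the gene lists used below, were chosen with earlier results of these data known. All 9 were found under these names, and all 9 passed the filter on low values. The tumors were induced in C57BL/6 mice with the carcinogen azoxymethane (AOM) followed by 3 cycles of dextran sulfate sodium (DSS), which injures the colon and causes inflammation, and were macrodissected from the colon, so that tumor epithelium, stroma and immune cells were sequenced together. Control tumors (n = 5) had the genotype Wls flox/flox. Villin-WlscKO tumors (n = 5) had the same floxed alleles with Villin-Cre ERT2, a tamoxifen-inducible Cre driven in intestinal epithelium including tumor cells, which removes Wls, the carrier that Wnt proteins need to leave a cell. The Villin-WlscKO mice received 5 tamoxifen injections beginning 30 days before collection. The control tumors were, by the study's figure legend, from mice without tamoxifen. The methods give an age of 6 to 10 weeks at the start and a preference for females. How many mice gave the tumors is not given in the sources used here, so n counts tumors and p-values measure the spread between these tumors, some of which may share a mouse. The question here was whether genes of antibody-producing cells and of antibody transport differed in level between tumors with and without epithelial Wnt secretion.

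Plasma cells of the gut wall secrete IgA mostly as dimers held together by the J chain (Jchain). The polymeric immunoglobulin receptor (Pigr) on the basolateral side of epithelial cells binds these dimers through the J chain, carries them across the cell and releases them into the lumen with a piece of itself, the secretory component. Their precursors, B cells, carry membrane immunoglobulin together with the signaling pair CD79A and CD79B, and lose most B cell surface proteins, CD20 (Ms4a1) included, when they become plasma cells.

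The values are FPKM, sequenced fragments scaled to transcript length and to the number of fragments mapped in a tumor, a level per length that can be compared between genes, and were analysed as log2(FPKM + 1). On this scale a difference understates the change of genes below about 1 FPKM. Every difference is Villin-WlscKO minus control, tested across 16757 genes with limma with Benjamini-Hochberg adjustment at 0.05, and with a two-sided exact permutation test over the 252 arrangements of the tumors, whose smallest p is 0.00794. Read numbers are not recoverable from FPKM, so the depth is unknown. Summed FPKM lay between 1265992 and 1533885 in control tumors and between 1207683 and 1341494 in Villin-WlscKO tumors. Wls, the deleted gene, was 72.9 ± 7.06 FPKM (SD, n = 5) in control tumors and 6.37 ± 4.89 FPKM (SD, n = 5) in Villin-WlscKO tumors (log2 change -3.59, limma adjusted p = 0.000337), without overlap. The groups also differed in sex: Xist, transcribed from the inactive X chromosome, averaged 0.188 FPKM in control tumors against 590.1 FPKM, and the Y-linked Eif2s3y averaged 41.7 against 0.0771 FPKM. Genotype, sex and tamoxifen therefore cannot be told apart in any comparison of the groups. Villin-WlscKO tumors 2 and 3 stood apart by the squamous keratin Krt5, at 469.5 and 669 FPKM, while the other 8 tumors were at most 0.315 FPKM, and results are also given without these squamous tumors.

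Pigr, on chromosome 1 from 130826684 to 130852249 (GRCm38, plus strand), was the member with the second highest level after Igha in both groups. In control tumors 1 to 5 it was 52.9, 216, 253, 77.1 and 219 FPKM. In Villin-WlscKO tumors 1 to 5 it was 327, 184, 524, 456 and 553 FPKM. Of the 5 Villin-WlscKO tumors, 4 lay above every control tumor, and tumor 2 lay among the controls, and control tumors 1 and 4 were the lowest of all. The means were 164 ± 91.6 FPKM (SD, n = 5) and 409 ± 153 FPKM (SD, n = 5), a 2.50-fold difference. The log2 change of 1.46 (standard error 0.48, 95% interval 0.40 to 2.52) had a p of 0.0317 in the exact permutation test, but its adjusted p of 0.0798 in limma did not pass the threshold. Leaving out the squamous tumors gave 1.65 (limma adjusted p = 0.106), and leaving out Villin-WlscKO tumor 2 alone gave 1.72, which passed (limma adjusted p = 0.0476). In a bulk sample, fewer cells of a type and less RNA per cell cannot be told apart, so a level of Pigr is also a level of epithelium. Epcam, an adhesion protein of epithelial cells, was 986 ± 46.3 FPKM (SD, n = 5) in control and 1120 ± 181 FPKM (SD, n = 5) in Villin-WlscKO tumors (log2 change 0.17, limma adjusted p = 0.386, with a negative change after quantile normalization).

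**Figure D1:**
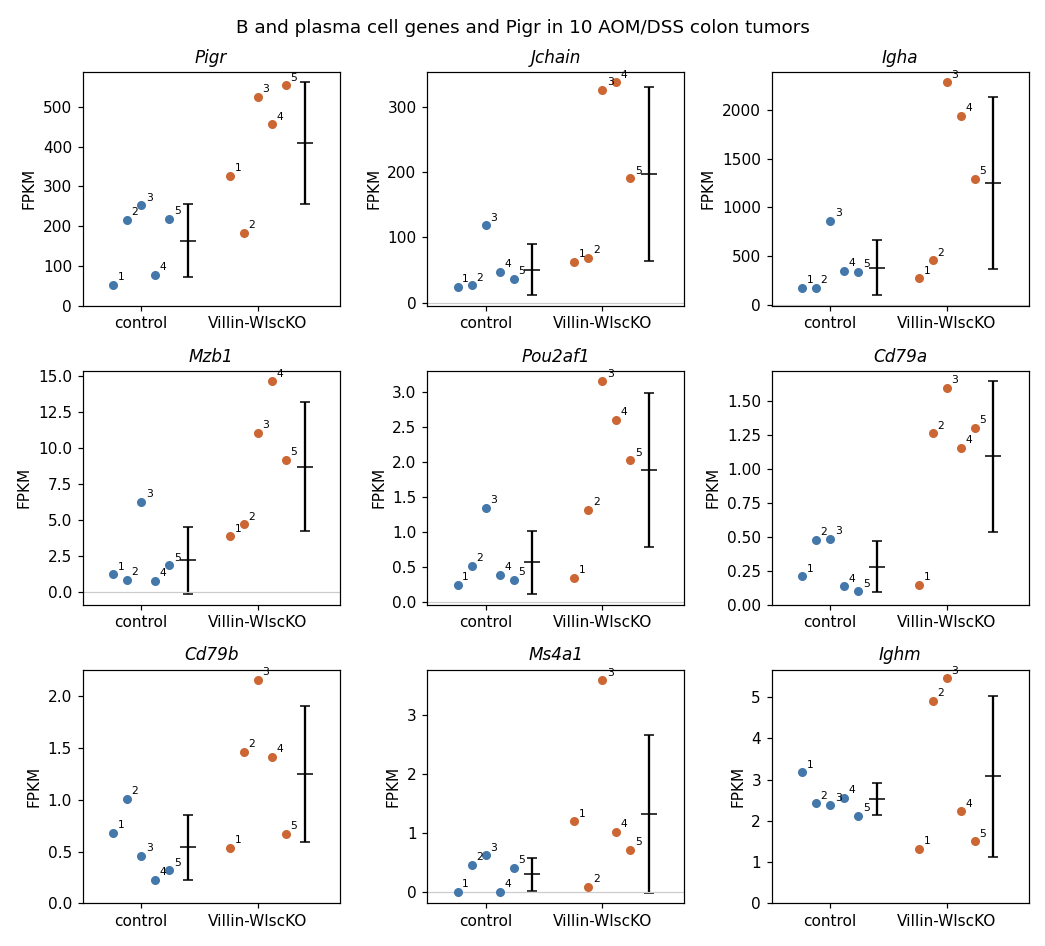
FPKM of Pigr and the 8 B and plasma cell genes in each tumor, 1 panel per gene with its own linear axis; each point is a tumor and the bar is the group mean with its SD (n = 5 per group). The means of all 9 genes are higher in Villin-WlscKO tumors, and in every panel at least 1 Villin-WlscKO tumor lies within the range of the control tumors.

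RefSeq promoter windows (GRCm38.p6, 250 bases before to 50 bases after the start) were found for 4 of the 9 members, Pigr, Jchain, Cd79a and Pou2af1. They were searched on both strands for the octamer ATGCAAAT bound by the factors with which OCA-B (Pou2af1) works, the E-box CACGTG bound by USF proteins, and the interferon regulatory factor element, GAAA followed by any 2 bases and GAAA. The E-box reads the same on both strands, and no match overlapped another. The windows of the epithelial member, Pigr, and of the plasma cell member with the largest change on the log2(FPKM + 1) scale, Jchain, are shown in lower case with the match in capitals. They lie at chr1:130826434-130826733 on the plus strand and at chr5:88527848-88528147 on the minus strand.
Pigr: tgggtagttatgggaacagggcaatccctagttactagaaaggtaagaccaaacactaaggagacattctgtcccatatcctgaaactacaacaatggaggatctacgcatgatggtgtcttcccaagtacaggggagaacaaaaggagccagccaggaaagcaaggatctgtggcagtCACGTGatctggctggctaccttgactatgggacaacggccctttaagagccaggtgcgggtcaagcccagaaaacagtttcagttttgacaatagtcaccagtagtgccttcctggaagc
Jchain: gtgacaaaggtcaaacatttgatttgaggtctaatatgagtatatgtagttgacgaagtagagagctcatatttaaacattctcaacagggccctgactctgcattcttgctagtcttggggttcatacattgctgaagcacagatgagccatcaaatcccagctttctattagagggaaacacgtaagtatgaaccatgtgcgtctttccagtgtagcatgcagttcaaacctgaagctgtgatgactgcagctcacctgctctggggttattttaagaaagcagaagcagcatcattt
The Pigr window holds 1 E-box, from 71 to 66 bases before the start, and was the only match among the 4 windows. Of 32851 RefSeq promoter windows of the same length, 7.15% hold this E-box, 1.74% the octamer and 3.44% the interferon regulatory factor element. A match is a description of the letters, and the absence of one says nothing about the factor.

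On the log2(FPKM + 1) scale the genes of antibody-secreting cells, Jchain, Mzb1 and Igha, had the largest differences among the members. This order depends on the pseudocount: as log2 ratios of mean FPKM the differences were 2.15 for Ms4a1, 1.97 for Mzb1, 1.96 for Cd79a, 1.95 for Jchain, 1.74 for Pou2af1 and 1.71 for Igha. Jchain, on chromosome 5 from 88519809 to 88527891 (minus strand), was 24.5, 26.7, 119, 47.3 and 37.2 FPKM in control tumors 1 to 5. Its values in Villin-WlscKO tumors 1 to 5 were 62.6, 69.0, 326, 337 and 190.4 FPKM. Control tumor 3 reached into the range of the Villin-WlscKO tumors, and the other 4 control tumors lay below all of them. The means were 50.9 ± 39.0 FPKM (SD, n = 5) and 197 ± 133 FPKM (SD, n = 5), 3.87-fold apart. The log2 change was 1.85 (standard error 0.58, 95% interval 0.56 to 3.13), with p = 0.0397 in the exact permutation test and an adjusted p of 0.0699 in limma. Leaving out control tumor 3 gave a change of 2.21 that passed the threshold (limma adjusted p = 0.0288), and Jchain also passed without Villin-WlscKO tumor 1 or 2. With both squamous tumors left out it was 1.88 (limma adjusted p = 0.118).

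Mzb1 encodes a chaperone of the endoplasmic reticulum that helps immunoglobulin assembly and secretion in marginal zone B cells and plasma cells. It was 1.26, 0.854, 6.30, 0.790 and 1.88 FPKM in control tumors 1 to 5 and 3.89, 4.71, 11.1, 14.6 and 9.20 FPKM in Villin-WlscKO tumors 1 to 5. Control tumor 3 was again the highest of its group and the only control tumor that overlapped the Villin-WlscKO tumors. Its mean rose 3.93-fold, from 2.21 ± 2.32 FPKM in the control tumors to 8.69 ± 4.47 FPKM (SD, n = 5 each). The log2 change was 1.68, with a 95% interval of 0.72 to 2.65, a limma adjusted p of 0.0331 and p = 0.0238 in the exact permutation test. It was the 1 member of the 9 past the threshold, where 6.12% of all genes tested were called higher. The call was lost when any of 7 of the 10 single tumors was left out (control 1, 2, 4 or 5, or Villin-WlscKO 3, 4 or 5; limma adjusted p between 0.066 and 0.0817) and without Villin-WlscKO tumors 2 and 3 (log2 change 1.74, limma adjusted p = 0.0895). In the annotation Mzb1, on chromosome 18 from 35647267 to 35649367 (minus strand), overlaps Spata24 on the same strand, to which reads could also belong. Spata24 was 8.52 ± 1.70 FPKM (SD, n = 5) in control and 7.57 ± 0.754 FPKM (SD, n = 5) in Villin-WlscKO tumors.

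Igha, the constant region gene of the IgA heavy chain, had the highest level of the 9 members. In control tumors 1 to 5 it was 178, 177, 862, 349.8 and 340.5 FPKM. In Villin-WlscKO tumors 1 to 5 it was 272, 458, 2282, 1940 and 1292 FPKM. Villin-WlscKO tumors 3, 4 and 5 lay above every control tumor, and tumors 1 and 2 lay within the control range. The means of 381 ± 282 FPKM (SD, n = 5) and 1249 ± 884 FPKM (SD, n = 5) were 3.27-fold apart, with a log2 change of 1.55 (95% interval 0.13 to 2.98) that did not pass in limma (adjusted p = 0.157) or in the exact permutation test (p = 0.0714). The joining segments Ighj2, Ighj3 and Ighj4 had the same 10 values as Igha. The stretch from Igha to Ighj2, on chromosome 12 from 113254830 to 113429567, spans 174738 bases and holds 7 other constant region genes, so the reads behind this value cannot be assigned to Igha with certainty.

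Ighm, the constant region gene of IgM, had a much lower level and no difference beyond its spread. It was 3.17, 2.42, 2.38, 2.56 and 2.13 FPKM in control tumors 1 to 5 and 1.32, 4.91, 5.45, 2.23 and 1.50 FPKM in Villin-WlscKO tumors 1 to 5. The Villin-WlscKO values lay on both sides of the control range, with tumors 2 and 3 above it and tumors 1 and 5 below it. The log2 change was 0.083 (standard error 0.29, 95% interval -0.55 to 0.72, limma adjusted p = 0.895), and it was negative without Villin-WlscKO tumor 2 or tumor 3, and -0.40 without both (limma adjusted p = 0.161).

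Of the 10 other immunoglobulin constant genes listed, 8 were in the table and 7 passed the filter. Of the 7, 6 had a positive change and 3 rose (Ighg2c, Ighg2b and Iglc2), and the median log2 change was 1.54, beside 0.0073 over all genes tested. Of all genes tested 51.4% had a positive change and 6.12% were called higher. Some of the 7 share their values with joining or variable segments. With identical entries counted once, 4 were tested, all 4 had a positive change and 3 were called higher. Ighg2c, the IgG2c heavy chain gene, was 0.272, 0.0556, 0.294, 0.387 and 1.54 FPKM in control tumors 1 to 5 and 5.49, 7.75, 42.7, 29.6 and 57.1 FPKM in Villin-WlscKO tumors 1 to 5. Every Villin-WlscKO tumor lay above every control tumor, which was so for 5.33% of all genes tested. The log2 change, 3.89 with a 95% interval of 2.58 to 5.20 (limma adjusted p = 0.00256), passed in all 22 alternative settings that gave a test. Ighg2b, the IgG2b heavy chain gene, had a mean of 3.25 ± 3.31 FPKM in control tumors and rose to 16.8 ± 7.99 FPKM (SD, n = 5 each; log2 change 2.26, limma adjusted p = 0.0175), and passed in the same 22 settings. The IgG genes have near-identical stretches, and how the authors' quantification divided reads among them is not given in the sources used here.

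The other constant genes differed less, or within the spread of the tumors. Ighg1, the IgG1 heavy chain gene, was 2.72 ± 1.71 FPKM (SD, n = 5) in control and 6.28 ± 3.84 FPKM (SD, n = 5) in Villin-WlscKO tumors (log2 change 0.93, limma adjusted p = 0.264). The light chain gene Igkc, which shares its values with the joining segments Igkj1, Igkj2, Igkj4 and Igkj5, ranged over 217 to 1209 FPKM in controls and 451 to 2987 FPKM in Villin-WlscKO tumors (log2 change 1.65, limma adjusted p = 0.126). Among the lambda light chain genes, Iglc2 rose from a mean of 4.87 ± 2.88 to 16.6 ± 11.6 FPKM (SD, n = 5 each; log2 change 1.50, limma adjusted p = 0.0313), a call lost without control tumor 1, 2, 4 or 5, Villin-WlscKO tumor 5, or both squamous tumors (limma adjusted p up to 0.0754). Iglc3 was 6.16 ± 4.13 FPKM (SD, n = 5) in control and 4.48 ± 1.61 FPKM (SD, n = 5) in Villin-WlscKO tumors (limma adjusted p = 0.817). Leaving out Villin-WlscKO tumors 2 and 3 gave 2 calls among the constant genes.

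Igha made up most of the heavy chain signal in every tumor, between 97.0% and 98.3% of the summed heavy chain FPKM in control tumors and between 90.0% and 97.4% in Villin-WlscKO tumors. The share of the 3 IgG genes was between 0.889% and 2.31% in control tumors and between 2.46% and 9.53% in Villin-WlscKO tumors, so that the groups did not overlap. Most of each sum is the Igha entry, which has the same values as Ighj2, Ighj3 and Ighj4. Reads of other classes may lie within it, so these shares and their separation hold only as far as it measures Igha. The highest IgG share was that of Villin-WlscKO tumor 1, in which Ighg2b alone made up 7.10%. Of the heavy chain genes, those that passed the test were Ighg2c and Ighg2b.

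**Figure D2:**
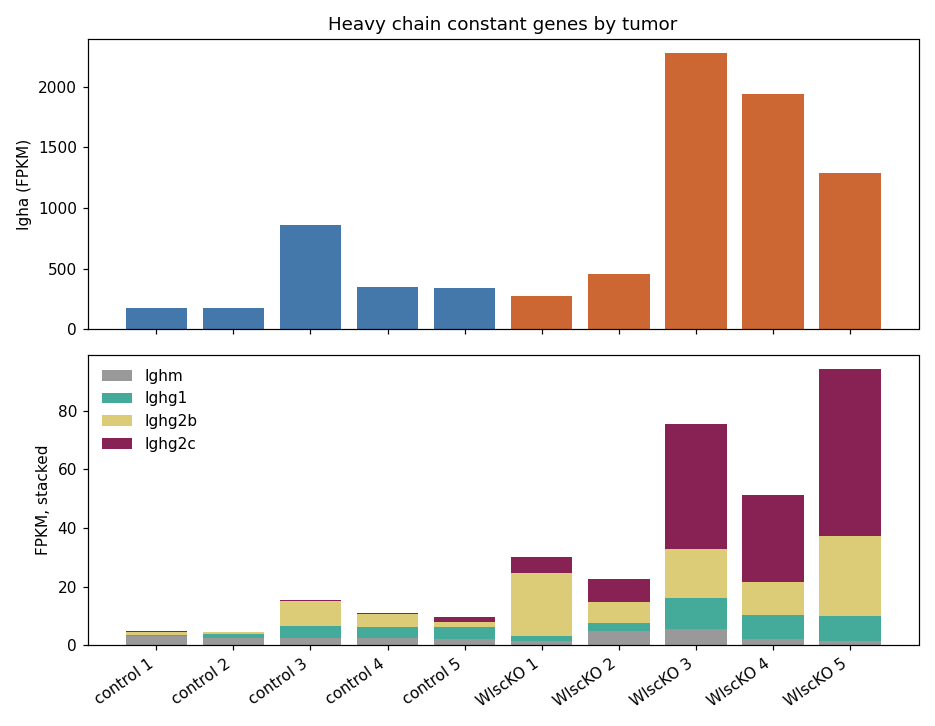
FPKM of immunoglobulin heavy chain constant genes in each tumor as bars on linear axes, control tumors beside Villin-WlscKO tumors. The upper panel shows Igha, and the lower panel, with its own scale, shows Ighm, Ighg1, Ighg2b and Ighg2c stacked. Igha lies far above the other classes in all 10 tumors, Ighg2c separates the groups without overlap, and Ighm lies at 1.32 to 5.45 FPKM in all tumors. The Igha entry has the same values as Ighj2, Ighj3 and Ighj4, so its reads cannot be assigned to Igha with certainty.

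The variable region genes, of which each antibody-producing clone uses a heavy and a light one, mostly had positive differences too. The 160 variable gene names reduced to 132 distinct entries once names with identical values were counted once, and 131 were tested. Of these, 119 had a positive and 12 a negative log2 change, 17 rose, 8 separated the groups without overlap, and the median log2 change was 0.96. Over all genes tested 51.4% had a positive change, 6.12% were called higher and 5.33% lay higher without overlap, so the 8 entries are near the share of all genes. The 17 calls ranged from 9 without Villin-WlscKO tumor 3 to 29 without Villin-WlscKO tumor 1 and 26 without control tumor 3, and were 10 without control tumor 2 or 4 or Villin-WlscKO tumor 5, and 11 without control tumor 5 or Villin-WlscKO tumor 4. In control tumors between 72 and 113 of the 132 entries were above 0, and in Villin-WlscKO tumors between 99 and 128. The summed variable gene FPKM lay between 158 and 1414 in control and between 326 and 2419 in Villin-WlscKO tumors, and the groups overlapped. The entry with the highest mean, Iglv2, shares its values with Iglc1 (log2 change 1.54, limma adjusted p = 0.193), and the next were Igkv10-96 (1.63, limma adjusted p = 0.130) and Igkv6-23 (0.74, limma adjusted p = 0.567). Leaving out both squamous tumors gave 7 calls. Some variable genes are near-identical to others, so an entry cannot be read as a single gene with certainty.

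The 4 members that mark B cells themselves, or their transcription, were at or near the lower end of the measured range. Cd79a, the signaling chain of the B cell receptor that plasma cells also retain in part, was 0.208, 0.477, 0.485, 0.136 and 0.0994 FPKM in control tumors 1 to 5. It was 0.146, 1.26, 1.60, 1.16 and 1.30 FPKM in Villin-WlscKO tumors 1 to 5. Villin-WlscKO tumor 1 lay among the controls, and the other 4 lay above all of them. The log2 change was 0.67 (standard error 0.22, 95% interval 0.18 to 1.15), with p = 0.0317 in the exact permutation test and an adjusted p of 0.0800 in limma. Without Villin-WlscKO tumor 1 it was 0.87 and passed (limma adjusted p = 0.00558). Leaving out both squamous tumors gave 0.49 (limma adjusted p = 0.282).

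Its partner Cd79b was 0.682, 1.01, 0.462, 0.230 and 0.319 FPKM in control tumors 1 to 5 and 0.537, 1.47, 2.16, 1.42 and 0.675 FPKM in Villin-WlscKO tumors 1 to 5. Villin-WlscKO tumors 2, 3 and 4 lay above the controls, and tumors 1 and 5 lay within their range (log2 change 0.52, standard error 0.22, limma adjusted p = 0.166, exact permutation p = 0.0635). The change was 0.28 without the squamous tumors (limma adjusted p = 0.495). Ms4a1, which encodes the B cell surface protein CD20, was listed at 0 in control tumors 1 and 4 and was 0.457, 0.621 and 0.411 FPKM in control tumors 2, 3 and 5. In Villin-WlscKO tumors 1 to 5 it was 1.20, 0.0860, 3.59, 1.02 and 0.715 FPKM. Tumor 2 was again among the controls, and the other 4 Villin-WlscKO tumors lay above them (log2 change 0.70, standard error 0.33, limma adjusted p = 0.217, exact permutation p = 0.0714), and the change was 0.42 without Villin-WlscKO tumor 3, 0.93 without tumor 2 and 0.63 without both (limma adjusted p = 0.354, 0.0789 and 0.112). In the annotation Ms4a1 overlaps the antisense gene 4930526L06Rik, and whether strand was used in the quantification is not given in the sources used here.

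Pou2af1, the B lineage coactivator OCA-B, was 0.251, 0.521, 1.35, 0.391 and 0.320 FPKM in control tumors 1 to 5 and 0.349, 1.32, 3.15, 2.60 and 2.02 FPKM in Villin-WlscKO tumors 1 to 5. Control tumor 3 was the highest control, as for Jchain, Igha and Mzb1, and Villin-WlscKO tumors 3, 4 and 5 lay above it. The means of 0.566 ± 0.449 FPKM (SD, n = 5) and 1.89 ± 1.10 FPKM (SD, n = 5) were 3.33-fold apart, with a log2 change of 0.82 (95% interval 0.16 to 1.49, limma adjusted p = 0.113, exact permutation p = 0.0556). Without Villin-WlscKO tumor 1 the change was 1.07 and passed (limma adjusted p = 0.0205), and without both squamous tumors it was 0.69 (limma adjusted p = 0.276). An intronic transcript, Gm47828, lies inside Pou2af1 on the same strand.

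All 9 members had a positive log2 change, Ighm only barely and not without Villin-WlscKO tumor 2 or 3 or as a ratio of medians, where 51.4% of all genes tested had one. Their median log2 change was 0.82. An unadjusted limma p under 0.05 in this direction was found for 7 of the 9 and for 13.9% of all genes tested. The members were chosen with earlier results of these data known, so these shares describe them and are not a test. None of the 9 separated the groups without overlap, which 10.1% of all genes did in either direction. By mean level the order in control tumors was Igha, Pigr, Jchain, Ighm, Mzb1, Pou2af1, Cd79b, Ms4a1 and Cd79a. The ranges of Ighm and Mzb1 overlapped, as did those of the last 4 genes. In Villin-WlscKO tumors Mzb1 stood above Ighm, but their ranges overlapped there too.

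**Figure D3:**
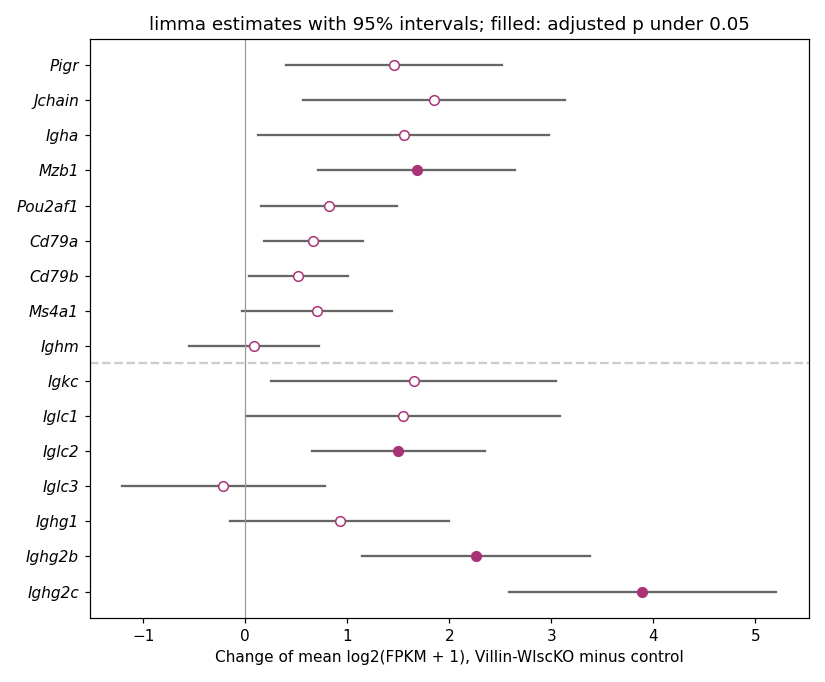
Log2 change, Villin-WlscKO minus control, of the 9 members and the other immunoglobulin constant genes on the log2(FPKM + 1) scale, each with its 95% interval from limma and filled where it passed the adjusted threshold. Among the members the filled point is Mzb1, at 1.68, and the largest change plotted is that of Ighg2c, at 3.89.

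Other genes by which plasma cells are known were tested as a list. Of the 15 listed, 13 were in the table, 11 had a positive change, 7 rose and 6 separated the groups (median log2 change 0.52), where 51.4% of all genes tested had a positive change, 6.12% were called higher and 5.33% lay higher without overlap. Xbp1, the transcription factor that expands the secretory apparatus, rose from a mean of 101 ± 14.4 to 153 ± 18.1 FPKM (SD, n = 5 each; log2 change 0.61, limma adjusted p = 0.00764). Creld2 and Txndc5, which help proteins fold in the endoplasmic reticulum, rose by 0.69 and 0.57 on the log2 scale, and the peptidyl-prolyl isomerase Fkbp11 rose by 0.97 (limma adjusted p = 0.00562, 0.0299 and 0.0218). Edem1, Ssr4 and Sec11c, of protein quality control, the translocon and signal peptide cleavage, rose by 0.52, 0.28 and 0.30 on the log2 scale (limma adjusted p = 0.0183, 0.0237 and 0.0141). Xbp1, Creld2 and Edem1 passed in all 22 alternative settings, Fkbp11 and Sec11c in 20, and Txndc5 and Ssr4 in 13, the last losing the call without 7 single tumors and Txndc5 without 6. These genes serve secretion in other secretory cells too, goblet cells included. Of the genes closer to plasma cell identity, Prdm1 (log2 change -0.49), Sdc1 (0.07) and Derl3 (0.64) did not pass, and Irf4 and Tnfrsf17 were not analysed here. With both squamous tumors left out, 5 of the list were called, and 4 were called with quantile normalization, without control tumor 2 or without Villin-WlscKO tumor 5.

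Of the 20 genes listed for B cell surface and signaling, 10 were in the table and tested, 7 had a positive change (median log2 change 0.26), and the only call was a fall. Cd83, an activation marker of B cells and dendritic cells, had a mean of 7.28 ± 2.34 FPKM in control tumors and fell to 1.80 ± 0.551 FPKM (SD, n = 5 each; log2 change -1.53, limma adjusted p = 0.00227), with no overlap. Of all genes tested 4.75% were called lower, and 4.76% lay lower without overlap. Cd22, an inhibitory receptor of B cells, was 0.630 ± 0.318 and 0.806 ± 0.394 FPKM (SD, n = 5 each; limma adjusted p = 0.697). Of the B cell transcription factors, 4 were tested and 0 were called in limma, 2 with a negative change having an unadjusted p under 0.05 (median log2 change -0.27). The defining B cell gene Pax5 was not analysed here.

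Pigr is induced in epithelial cells by interferon-gamma, interleukin-17, interleukin-4, tumor necrosis factor and microbial signals. In the list of genes for these signals, 16 were tested, 12 had a positive change and 6 rose, with a median log2 change of 0.25, beside 51.4% positive and 6.12% called higher over all genes tested. Irf1, an interferon-induced transcription factor, rose from a mean of 48.8 ± 4.26 to 139 ± 17.5 FPKM (SD, n = 5 each; log2 change 1.48, limma adjusted p = 1.18e-05). The receptors Ifngr1, Il17rc, Il4ra and Tlr4 rose by 0.59, 0.81, 0.77 and 0.55 on the log2 scale (limma adjusted p = 0.0228, 0.022, 0.0493 and 0.0236). Of these calls, Ifngr1, Il17rc and Tlr4 passed in 18 of 22 alternative settings and Il4ra in 9, while Irf1 passed in all 22. In the same list 4 genes had a negative change, 1 of them with an unadjusted limma p under 0.05. Ifngr2 was not called, and its log2 change lay between -0.375 and -0.127 in the 22 alternative settings, passing in 1. Il17ra, Tnf, Myd88, Nfkb1 and Rela were not called in the main fit or in any alternative. Ifng itself, below the filter, was listed between 0 and 0.0584 FPKM in control tumors and between 0.185 and 1.35 FPKM in Villin-WlscKO tumors. The E-box binding factors Usf1 and Usf2 did not pass (log2 change 0.53 and -0.18, limma adjusted p = 0.106 and 0.239). With both squamous tumors left out, 3 of the list were called. Single tumors also changed this count, to 2 without Villin-WlscKO tumor 5, to 3 without control tumor 2 or 4 or Villin-WlscKO tumor 3, and to 4 without control tumor 5 or Villin-WlscKO tumor 1.

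Of 10 genes that move the receptor through the cell, 5 had a positive and 5 a negative change, and the median log2 change was 0.016. In limma 0 were called, and 1 with a positive and 2 with a negative change had an unadjusted p under 0.05. Rab25 and Myo5b, of the apical recycling route, changed by 0.19 and 0.09 on the log2 scale (limma adjusted p = 0.309 and 0.725), and Rab17 by -0.59 (limma adjusted p = 0.143). Among the 7 Fc receptor genes tested the only call was Trim21, the cytosolic antibody receptor, which rose from a mean of 3.95 ± 0.379 to 8.22 ± 0.798 FPKM (SD, n = 5 each; log2 change 0.90, limma adjusted p = 0.000234). With identical entries counted once, 6 were tested and 1 was called. Of all genes tested 6.12% were called higher, and a list this short cannot be set apart from that share.

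In the list of IgA switch and plasma cell survival signals, 6 of 13 genes were in the table, 5 had a positive change (median log2 change 0.36), 0 passed in limma and 2 had an unadjusted p under 0.05. The survival factors Tnfsf13 and Tnfsf13b, known as APRIL and BAFF, had log2 changes of 0.43 and 0.37 (limma adjusted p = 0.147 for both), and the value of Tnfsf13 is shared with Tnfsf12. Of 12 homing and follicle genes tested, 10 had a positive change (median log2 change 0.36) and 1 rose. It was Itgb7, an integrin chain by which lymphocytes enter the gut, with means of 0.725 ± 0.122 and 2.71 ± 1.39 FPKM (SD, n = 5 each; log2 change 1.03, limma adjusted p = 0.0166) and no overlap. Over all genes tested 51.4% had a positive change, 6.12% were called higher and 5.33% lay higher without overlap. The 1 call among the 12 is near these shares and describes Itgb7 rather than the list. Ccl28, the chemokine that draws IgA plasma cells to the colon, was 9.30 ± 2.75 and 13.9 ± 8.56 FPKM (SD, n = 5 each; limma adjusted p = 0.680), and Madcam1, the vessel ligand of the integrin, 1.13 ± 0.457 and 2.23 ± 1.22 FPKM (SD, n = 5 each; limma adjusted p = 0.213).

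Markers of other cells moved with the groups to different extents, and their part in the differences above was not tested. Of 10 T cell genes, 9 had a positive change and 4 rose (Cd3d, Cd3e, Cd3g and Cd8a), beside 51.4% and 6.12% of all genes tested. Calls fell to 2 without Villin-WlscKO tumor 2 or tumor 5. Their summed level was 14.0 to 22.7 FPKM in control and 23.2 to 47.4 FPKM in Villin-WlscKO tumors, the groups not overlapping. Without both squamous tumors 8 T cell genes passed the filter and 0 were called in limma. Of 7 general leukocyte genes 1 rose (Lcp1), with sums of 98.7 to 159 and 107 to 255 FPKM. Ptprc, the leukocyte antigen CD45, was 4.46 ± 1.26 and 6.70 ± 2.08 FPKM (SD, n = 5 each; limma adjusted p = 0.193). All 10 epithelial genes had a positive change, 7 of them after quantile normalization, and 1 rose (Krt20, of differentiated colonocytes; log2 change 0.91, limma adjusted p = 0.0156). Their sums were 7289 to 10530 and 9285 to 13032 FPKM in the same order. Their median log2 change was 0.27, and 5 had an unadjusted limma p under 0.05, beside 13.9% of all genes tested higher. Under the alternatives Cdx2 changed by 0.61 to 1.05 and Vil1 by 0.39 to 0.59, passing in 1 and 3 of 22. The macrophage, fibroblast, endothelial and squamous lists had 0 calls in limma (median log2 changes -0.042, 0.075, -0.029 and 0.86), with 1, 0, 0 and 0 genes at an unadjusted p under 0.05, respectively. Without Villin-WlscKO tumors 2 and 3 these medians were -0.29, -0.41, -0.42 and -0.84, again with 0 calls. In that setting 4 squamous genes were tested and 0 were higher. Of the 7 neutrophil genes 6 had a positive change (median log2 change of the list 0.85), of which 5 had an unadjusted p under 0.05 and 0 were called in limma, though 3 were called higher without control tumor 3. The seventh, Mmp9, fell, a call lost without Villin-WlscKO tumor 3.

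Ratios within a tumor set the members against markers of the cells that make them. The log2 ratio of Pigr to Epcam averaged -2.83 ± 1.03 (SD, n = 5) in control and -1.54 ± 0.611 (SD, n = 5) in Villin-WlscKO tumors, a difference of 1.29 with an exact permutation p of 0.0556. The log2 ratio of Jchain to Ptprc differed by 1.36 (exact permutation p = 0.0794), that of Jchain to Cd79a by 1.18 (p = 0.0714) and that of Igha to Ighm by 1.47 (p = 0.0873). The ratio of Cd79a to Ptprc differed by 0.18 (exact permutation p = 0.508). Both ratios with Cd79a depended on the pseudocount: at 0.1 that of Jchain to Cd79a differed by 0.33 (adjusted exact permutation p = 0.635) and that of Cd79a to Ptprc by 0.97 (adjusted p = 0.179). In each of the first 4 ratios, 3 of 5 Villin-WlscKO tumors lay above every control tumor. After adjustment over the 5 ratios none passed (adjusted exact permutation p = 0.109 for 4 of them and 0.508 for the last), and without Villin-WlscKO tumor 2 the first 4 passed (adjusted p = 0.0496).

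Pigr and the plasma cell genes were also compared tumor by tumor, after the group means had been removed from log2(FPKM + 1). Across the 10 tumors Pigr correlated with Jchain at Pearson r = 0.57 (exact permutation p = 0.0871) and Spearman rho = 0.55 (p = 0.0694), permuted within groups. Ms4a1 had the highest value of the 8 relations tested, with r = 0.66 (exact permutation p = 0.0235) and rho = 0.77 (p = 0.0136), and Ighm was the lowest, at r = -0.32 and rho = -0.35. After Benjamini-Hochberg adjustment over the 8 relations none passed (adjusted p for Jchain 0.192 and 0.139, for Ms4a1 0.188 and 0.109, by permutation). The 2 tumors with the most extreme Pigr once group means were removed, control 1 and Villin-WlscKO 2, were then left out. The group means of all 10 tumors were kept, so the remaining 8 values are not fully free of them. In these 8, r fell to 0.33 for Jchain, 0.37 for Igha and 0.43 for Ms4a1, which rest in part on the 2 tumors. It was 0.61 for Mzb1, 0.51 for Pou2af1, 0.56 for Cd79a and 0.43 for Cd79b (0.60, 0.51, 0.30 and 0.055 over all 10 tumors).

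Among themselves the plasma cell members varied closely together, given here as a description over the same 10 libraries with group means removed. Jchain and Igha had r = 0.98, Jchain and Mzb1 0.90, Jchain and Pou2af1 0.89, and Igha and Pou2af1 0.92. Pou2af1, which B and plasma cells share, was also close to Cd79a, at r = 0.87. Between the other B cell members r was 0.70 for Cd79a and Cd79b, 0.77 for Ighm and Cd79b and 0.19 for Cd79a and Ms4a1, and between Cd79a and Igha it was 0.63. Jchain and Ighm had r = 0.083. Control tumor 3 and Villin-WlscKO tumors 3, 4 and 5 were high in Jchain, Igha, Mzb1 and Pou2af1 alike within their groups.

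**Figure D4:**
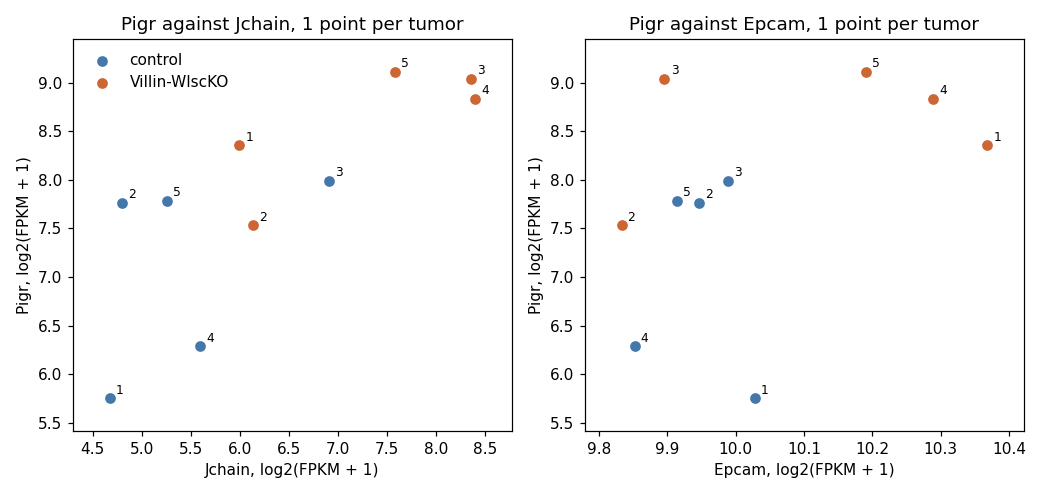
Pigr against Jchain (left panel) and against Epcam (right panel) in each of the 10 tumors, all as log2(FPKM + 1), with control and Villin-WlscKO tumors marked and numbered. The plotted values keep the group means. With group means removed, Pearson r of Pigr and Jchain is 0.57 and does not pass after adjustment. Villin-WlscKO tumor 2 lies lowest in Pigr of its group.

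Of the 11792 other genes with a mean of at least 5 FPKM, those most like Jchain over the 10 tumors, by Pearson r with group means removed, were the Igha entry (r = 0.98), the Igkc entry (0.97), Ssr4 (0.97), Tac1 (0.95) and Tmem50b (0.95). Ssr4 is a subunit of the translocon-associated complex through which secreted proteins enter the endoplasmic reticulum, and Tac1 encodes the precursor of substance P. Those most like Pigr were Atp2c2 (r = 0.98), Pkdcc (0.97), Slc5a8 (0.97), Atp2a3 (0.97) and Tcea3 (0.96). Atp2c2 and Atp2a3 pump calcium into the secretory pathway, and Slc5a8 takes up short-chain fatty acids in colonocytes. No plasma cell gene was among the genes closest to Pigr.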

How the data were processed

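The authors sequenced messenger RNA of 5 control and 5 Villin-WlscKO tumors, macrodissected from the colon, from TruSeq stranded libraries. Per the labels and the study's methods, the authors checked reads with FastQC, mapped them with TopHat2 2.1.1 to GRCm38.p5 and quantified transcripts with Cufflinks 2.2.1 and Cuffdiff at default settings, running it again without merging transcripts for values per sample. The deposited values are FPKM, 1 per gene name and tumor. The annotation release and strand setting are not given in the sources used here. All 10 columns matched a sample by label and 0 were left over.

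FPKM were converted to log2(FPKM + 1) (pseudocount 1). Genes with a mean of at least 0.5 FPKM were tested with limma 3.58.1 in R 4.3.3 (eBayes with variance trend, no covariate, two-sided, Benjamini-Hochberg adjustment at 0.05), checked on simulated data. Exact permutation tests and figures used Python 3.11.15, scipy 1.17.1 and matplotlib 3.10.9. Positions are from GENCODE M21 on GRCm38, promoters from RefSeq. A gene is named if it is a member, another immunoglobulin constant gene, one of at most 6 examples of a list, one of the 3 variable entries of highest mean, or one of the 5 genes most like Jchain or Pigr. Genes named outside this (Wls, Xist, Eif2s3y, Spata24, and the markers of the ratios) check the labels or another value. The members and gene lists were chosen with earlier results of these data known.

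Alternatives were a pseudocount of 0.1, scaling to an FPKM sum of 1000000, median-ratio scaling, quantile normalization, no filter, a minimum of 5 FPKM, no variance trend, robust eBayes, tumor quality weights, a replicate block, identical entries counted once, ratios of group means or medians, each tumor left out, and Villin-WlscKO tumors 2 and 3 left out. Depth is unknown and no counting error could be given, so precision rests on the spread over 5 tumors. Some results are not reported here.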

Additional observations from a re-analysis of the deposited data

Results flagged for a closer look

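In 3 of 34 groups of 5 tumors examined, 1 tumor stood further from the rest than Dixon's 95% limit of 0.71 for the gap over the range, where chance gives about 1 in 20 groups. Cd79a was lowest in Villin-WlscKO tumor 1, at 0.146 FPKM, with a gap of 0.771 of the group's range below the other 4. Iglc3 was lowest in the same tumor, at 1.66 FPKM, with a gap of 0.834. Iglc2 was highest of the controls in control tumor 3, at 10.02 FPKM, with a gap of 0.89. Villin-WlscKO tumor 1 also had the highest IgG share of heavy chain FPKM, and control tumor 3 was the highest control for Jchain, Igha, Mzb1 and Pou2af1. The causes were not tested.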

How the results depend on the processing

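Genes called across the table numbered 1822 and ranged from 1229 to 1986 when a tumor was left out, and fell to 1101 without Villin-WlscKO tumors 2 and 3. The split into higher and lower was 1026 and 796, 1373 and 410 after scaling to an equal FPKM sum, and 893 and 1125 after quantile normalization. Leaving out each tumor in turn gave log2 changes of 1.12 to 1.72 for Pigr, 1.57 to 2.21 for Jchain, 1.48 to 2.03 for Mzb1, 0.58 to 0.87 for Cd79a, 0.42 to 0.93 for Ms4a1 and 0.66 to 1.07 for Pou2af1. The calls gained or lost there are named beside each gene, and for Jchain without Villin-WlscKO tumor 1 or 2 the limma adjusted p was 0.0429 and 0.0478. Ighm turned negative, with a range of -0.11 to 0.25, and was -0.40 without Villin-WlscKO tumors 2 and 3, where Mzb1 was 1.74 and no longer passed. Iglc3 ranged from -0.48 to 0.036, turning positive without control tumor 5 (0.036) or Villin-WlscKO tumor 1 (0.029). Jchain passed with tumor quality weights (1.91, limma adjusted p = 0.0488). Log2 ratios of the group means, and of the group medians, without a pseudocount were 1.96 and 2.60 for Cd79a, 1.21 and 1.62 for Cd79b, 2.15 and 1.32 for Ms4a1 and 1.74 and 2.37 for Pou2af1, and the ratio of medians was 2.87 for Mzb1.

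Tumors share only a replicate number, and the labels name no pairing. With group means removed, same-numbered tumors correlated at 0.0638, -0.0868, 0.0626, 0.10 and 0.162. Values for differently numbered tumors are not given beside them, so these correlations do not settle whether the numbers pair tumors. With the replicate block, 1627 genes were called, and Jchain (1.85, limma adjusted p = 0.00828) and Igha (1.55, limma adjusted p = 0.0156) passed, as did Igkc, Ighg1 and Iglc1 (limma adjusted p = 0.00798, 0.00637 and 0.0394), taking calls from 3 to 6 among constant genes and from 17 to 35 among variable entries.

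With each tumor left out, the log2 ratio differences ranged from 0.93 to 1.50 for Pigr to Epcam, 0.93 to 1.51 for Jchain to Cd79a, 1.16 to 1.89 for Igha to Ighm and 1.09 to 1.76 for Jchain to Ptprc. At a pseudocount of 0.1 that of Jchain to Cd79a was 0.33 and that of Cd79a to Ptprc 0.97. The relation of Pigr to Ighm turned to r = 0.13 without the 2 most extreme tumors. Without Villin-WlscKO tumors 2 and 3, an alternative added after seeing the data for lists, calls fell from 6 to 3 among Pigr regulators, 4 to 0 among T cell genes and 17 to 7 among variable entries, and stayed within 1.5 times for constant genes (3 to 2) and plasma cell genes (7 to 5). At a minimum of 5 FPKM, Ighm, Cd79a, Cd79b, Ms4a1 and Pou2af1 gave no value. Of the log2 changes of members and constant genes under all alternatives, 321 were counted as keeping their direction and side of the threshold, 9 moved, 5 reversed, 12 gained and 14 lost the call. The 321 include Ighm as a ratio of group medians, which did change direction (-0.12, against 0.083 in the main fit).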
